A study of Mus musculus with 12 samples.

Results

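The matrix proteoglycans described here are 10 genes, Lum, Dcn, Bgn, Fmod, Ogn, Prelp, Vcan, Prg4, Hspg2 and Acan, taken by name from a count table of 78334 gene rows, of which 16981 had enough counts to be tested. Of the 10 members, 9 passed that filter and Fmod did not. RNA came from the left ventricle of 12 mice in 3 groups of 4 animals, with 1 library per animal. Sham vehicle mice had a sham operation and ate normal chow. UNX/DOCA vehicle mice had UNX/DOCA surgery, which the labels give as a way to bring about diastolic dysfunction (removal of a kidney with deoxycorticosterone acetate, a mineralocorticoid), and ate normal chow. UNX/DOCA ITF2357 mice had the same surgery and ate chow containing ITF2357, known as givinostat, a drug that blocks histone deacetylases. The chow was given for 4 weeks, starting 4 weeks after surgery. No Sham mice received ITF2357, so the action of the drug without UNX/DOCA was not measured.

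Proteoglycans are core proteins that carry long sulfated sugar chains (glycosaminoglycans) and fill the space between cells. The small leucine-rich members bind collagen fibrils and set their width and spacing. The large members bind hyaluronan (Vcan, Acan), build basement membranes (Hspg2) or lubricate moving surfaces (Prg4). In the heart they are made mainly by fibroblasts and, for perlecan, also by cells that rest on a basement membrane.

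Counts per library totalled 23.4 to 34.9 M. Expression is given as CPM, the counts of a gene per 1 M counts of its library after scaling by the trimmed mean of M values, and group values are mean ± SD over 4 animals. A gene was called where its Benjamini-Hochberg adjusted p over all 16981 genes was under 0.05 in edgeR's quasi-likelihood test. In bulk tissue, fewer cells of a type and less RNA per cell cannot be told apart, which holds for every difference below. The libraries matched their label: 7 ventricular myocyte markers summed to between 55876 and 71651 CPM, and 6 atrial markers to between 8.44 and 18.7 CPM. UNX/DOCA vehicle replicate 3 stood apart. Its 10 neutrophil markers summed to 693 CPM, against 3.91 to 175 CPM in the other 3 libraries of its group, 14.5 to 60.9 in Sham vehicle and 5.03 to 30.6 in UNX/DOCA ITF2357. Its 11 macrophage markers summed to 642 CPM against 218 to 465 in the other 11 libraries, and its 12 resident fibroblast markers to 1938 against 1122 to 1505. Values of members, medians of gene lists and called list genes, in the comparisons that use it, are also given without it where that ended a call or moved the value by over 1.5 times.

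Of the promoters, those of Vcan, Hspg2 and Ogn are shown, because these 3 genes had different patterns of values over the groups. Windows of 250 bases before the transcription start were available for 7 of the 10 members in the RefSeq table (GRCm38.p6), namely Bgn, Fmod, Ogn, Prelp, Vcan, Hspg2 and Acan. The GC box GGGCGG, the TATA box TATAAA, the CCAAT box CCAAT, the AP-1 site TGANTCA and the corticoid response half-site TGTTCT were searched on both strands, and matches are in capitals. Vcan lies at chr13:89742513-89742762 (minus strand), Hspg2 at chr4:137468553-137468802 (plus strand) and Ogn at chr13:49607765-49608014 (plus strand), each read 5′ to 3′ along the gene.
Vcan: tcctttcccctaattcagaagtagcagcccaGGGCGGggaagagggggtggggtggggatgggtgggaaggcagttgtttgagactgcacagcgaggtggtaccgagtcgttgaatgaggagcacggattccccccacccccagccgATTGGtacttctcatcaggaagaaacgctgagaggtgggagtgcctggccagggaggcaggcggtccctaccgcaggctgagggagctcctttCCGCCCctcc
Hspg2: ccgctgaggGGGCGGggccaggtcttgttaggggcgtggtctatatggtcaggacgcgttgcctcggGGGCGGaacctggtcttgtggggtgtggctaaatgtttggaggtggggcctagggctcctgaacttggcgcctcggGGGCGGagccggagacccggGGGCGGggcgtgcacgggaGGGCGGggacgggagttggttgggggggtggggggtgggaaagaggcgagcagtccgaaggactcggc
Ogn: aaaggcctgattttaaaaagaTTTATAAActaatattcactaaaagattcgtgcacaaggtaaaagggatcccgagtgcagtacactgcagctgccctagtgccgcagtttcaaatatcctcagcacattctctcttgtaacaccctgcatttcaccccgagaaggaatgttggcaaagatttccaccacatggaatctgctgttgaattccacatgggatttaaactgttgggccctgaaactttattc
Vcan held 2 GC boxes and 1 CCAAT box, and Hspg2 held 5 GC boxes. Ogn held 2 TATA boxes that overlap on opposite strands and none of the other motifs. GC boxes were in 32.7% of the 32851 promoters of this length, TATA boxes in 12.4% and CCAAT boxes in 33.8%. Hspg2 had 20 CpG pairs and a GC content of 70%, Vcan 10 and 62.4%, and Ogn 4 and 42.0%, beside medians of 6 and 52.4% over all promoters. No AP-1 match lay in any of the 7 windows, and such a match was in 6.75% of all promoters. The corticoid response half-site had 1 match in the 7 windows, in Bgn at 241 bases before the start. That half-site was in 16.1% of all promoters. These matches describe the letters and were not tested for use.

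Ordered by CPM per kilobase of the longest coding transcript, decorin (Dcn) was highest in Sham vehicle at 242 ± 18.6, followed by biglycan (Bgn) at 84.4 ± 8.37 and osteoglycin (Ogn) at 46.3 ± 1.16. Lumican (Lum) at 22.4 ± 2.84 and perlecan (Hspg2) at 20.6 ± 1.92 came next and overlapped each other. PRELP stood at 9.63 ± 0.391, lubricin (Prg4) at 1.81 ± 0.413 and versican (Vcan) at 1.77 ± 0.313, the last pair overlapping. Aggrecan (Acan) at 0.0226 ± 0.0256 and fibromodulin (Fmod) at 0.0224 ± 0.0162 CPM per kilobase were close to the detection limit (SD, n = 4). With the union of all annotated exons as the length, Ogn (46.3) ranked above Bgn (33.5) and Dcn stood at 72.8, since the annotation gives Dcn and Bgn 5838 and 6099 exon bases against 1758 and 2419 in the longest coding transcript. Dcn and Bgn together made up 76.0% ± 1.03 of the summed level per kilobase of the 10 members in Sham vehicle, 77.4% ± 1.85 in UNX/DOCA vehicle, then 77.1% ± 2.00 in UNX/DOCA ITF2357 (SD, n = 4). On the longest coding transcript the order of the 10 means was the same in the 3 groups, while on the exon union Bgn ranked above Ogn in UNX/DOCA vehicle and below it in the other groups. On the former scale, every neighbouring pair from Ogn down to Vcan overlapped in UNX/DOCA vehicle.

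**Figure D1:**
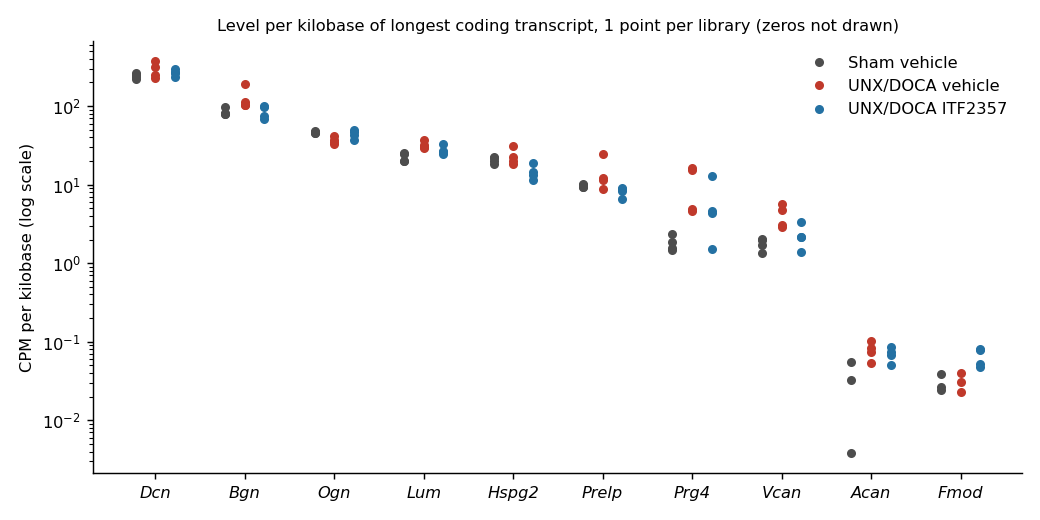
CPM per kilobase of the longest coding transcript (log axis) for each of the 10 members, 1 point per library and 1 colour per group, with libraries at 0 left out. Dcn and Bgn lie highest, Acan and Fmod lie lowest, and the Prg4 points of UNX/DOCA vehicle lie above all 4 of Sham vehicle.

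Among the small leucine-rich proteoglycans, lumican, which spaces collagen fibrils, measured 60.3, 48.9, 48.7 and 61.4 CPM in Sham vehicle, 72.7, 72.3, 89.5 and 77.7 in UNX/DOCA vehicle, then 60.7, 64.6, 80.3 and 65.5 in UNX/DOCA ITF2357. All 4 UNX/DOCA vehicle libraries lay above all 4 Sham vehicle libraries, and the drug group overlapped both. The log2 fold change of Lum was 0.51 ± 0.11 (SE) between UNX/DOCA vehicle and Sham vehicle (adjusted p = 0.0998), so it did not pass. Without UNX/DOCA vehicle replicate 1 Lum passed (adjusted p = 0.0465, with 2.2% of all genes called in that fit), and without replicate 3 its log2 fold change was 0.44. Against UNX/DOCA vehicle the drug group stood at -0.20 ± 0.11 (adjusted p = 0.349).

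Decorin, which binds collagen and transforming growth factor beta, measured 432, 388, 413 and 466 CPM in Sham vehicle, 401, 443, 659 and 545 in UNX/DOCA vehicle, then 407, 471, 461 and 517 in UNX/DOCA ITF2357. The 3 groups overlapped, and UNX/DOCA vehicle replicates 3 and 4 were the highest libraries. The Dcn log2 fold change between UNX/DOCA vehicle and Sham vehicle was 0.27 ± 0.13 (adjusted p = 0.349). It was 0.12 without replicate 3. Between UNX/DOCA ITF2357 and UNX/DOCA vehicle the Dcn value was -0.14 ± 0.13 (adjusted p = 0.607). That value was -0.0017 without UNX/DOCA vehicle replicate 3.

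Biglycan, the relative of decorin that also signals through Toll-like receptors, measured 193, 197, 193 and 234 CPM in Sham vehicle, 252, 248, 467 and 275 in UNX/DOCA vehicle, then 165, 245, 237 and 179.7 in UNX/DOCA ITF2357. The UNX/DOCA vehicle libraries lay above every library of the other groups, by a narrow margin at 248 against 245. The log2 fold change of Bgn was 0.61 ± 0.20 against Sham vehicle (adjusted p = 0.186) and that of UNX/DOCA ITF2357 against UNX/DOCA vehicle was -0.59 ± 0.20 (adjusted p = 0.150). Without UNX/DOCA vehicle replicate 3 these Bgn values were 0.34 and -0.33.

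Osteoglycin (mimecan), a small leucine-rich member that binds collagen fibrils, had its lower values in the UNX/DOCA vehicle group. Ogn measured 122, 121, 117 and 116 CPM in Sham vehicle, 90.8, 107, 84.6 and 94.0 in UNX/DOCA vehicle, then 129, 95.2, 122 and 111 in UNX/DOCA ITF2357. All 4 UNX/DOCA vehicle libraries lay below all 4 Sham vehicle libraries, and the drug group overlapped both. The Ogn log2 fold change was -0.34 ± 0.09 against Sham vehicle (adjusted p = 0.138) and 0.28 ± 0.09 in UNX/DOCA ITF2357 against UNX/DOCA vehicle (adjusted p = 0.153). Of the members, Ogn also had the tightest Sham vehicle values, with a coefficient of variation of 2.51%.

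PRELP, which ties collagen to basement membrane perlecan, measured 35.4, 33.9, 33.4 and 36.5 CPM in Sham vehicle, 41.3, 31.9, 89.6 and 43.6 in UNX/DOCA vehicle, then 32.6, 29.8, 32.2 and 23.9 in UNX/DOCA ITF2357. The highest library by a wide margin was UNX/DOCA vehicle replicate 3. All 4 drug libraries lay below all 4 Sham vehicle libraries, by a narrow margin at 32.6 against 33.4. The fitted log2 fold change between these groups was -0.23 ± 0.25 (adjusted p = 0.650), smaller than its standard error. The Prelp log2 fold change was 0.57 ± 0.25 for UNX/DOCA vehicle against Sham vehicle (adjusted p = 0.303) and 0.16 without replicate 3. It was -0.80 ± 0.25 for UNX/DOCA ITF2357 against UNX/DOCA vehicle (adjusted p = 0.131) and -0.40 without replicate 3.

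Fibromodulin, a collagen-binding relative of lumican, had 2, 3, 0 and 3 counts in Sham vehicle, 0, 3, 3 and 2 in UNX/DOCA vehicle, then 4, 8, 5 and 6 in UNX/DOCA ITF2357. The drug libraries lay above the others, at counts too low for the filter, and Fmod was not tested.

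Among the hyaluronan-binding members, versican, the large chondroitin sulfate proteoglycan of loose and provisional matrix, measured 16.8, 21.4, 24.7 and 25.3 CPM in Sham vehicle, 59.5, 36.2, 38.2 and 69.5 in UNX/DOCA vehicle, then 17.2, 41.0, 26.95 and 26.4 in UNX/DOCA ITF2357. UNX/DOCA vehicle did not overlap Sham vehicle, and of the drug libraries only replicate 2 reached the UNX/DOCA vehicle range. The Vcan means stood at a ratio of 2.31, with a log2 fold change of 1.21 ± 0.27 (adjusted p = 0.0998). Without UNX/DOCA vehicle replicate 3 it was 1.32, and with replicates 3 and 4 both left out it was 1.12. For UNX/DOCA ITF2357 against UNX/DOCA vehicle the Vcan value was -0.86 ± 0.26 (adjusted p = 0.123).

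Aggrecan, the chief proteoglycan of cartilage, had 0, 1, 6 and 10 counts in Sham vehicle, 18, 23, 13 and 11 in UNX/DOCA vehicle, then 10, 18, 19 and 12 in UNX/DOCA ITF2357. Every UNX/DOCA vehicle library had more counts than every Sham vehicle library, but scaled to depth the lowest (0.396 CPM) lay just under the highest Sham vehicle library (0.400 CPM). The Acan log2 fold change was 1.85 ± 0.62 for UNX/DOCA vehicle against Sham vehicle (adjusted p = 0.190) and 1.68 ± 0.62 for UNX/DOCA ITF2357 against Sham vehicle (adjusted p = 0.159). Both rest on a Sham vehicle group with 17 counts in all, and on a filter that Acan passed only through the UNX/DOCA groups. With 1 library left out the former ran from 1.42 (without Sham vehicle replicate 2) to 2.75 (without Sham vehicle replicate 4), and the latter from 1.26 to 2.58 without the same libraries. Markers of valve, tendon and cartilage cells summed to 18.1 to 21.4 CPM in Sham vehicle, 28.9 to 33.4 in UNX/DOCA vehicle, then 21.1 to 28.8 in UNX/DOCA ITF2357. Of these 14 markers, Tnmd, Hapln1, Col2a1, Col9a1 and Matn3 had 3 or fewer counts in every library. Mkx, Chad, Col11a1 and Cilp2 also failed the low-count filter, which left 5 tested. Those 5 had a median log2 fold change of 0.22 for UNX/DOCA vehicle against Sham vehicle, with 4 above 0. Comp and Thbs4 among them were also in the list of activated fibroblast markers. The part of valve, tendon and cartilage cells in the Acan and Vcan values was not tested.

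Lubricin (Prg4) is a mucin-like proteoglycan known from joint and tendon surfaces. Among the tested members it had the widest spread of log2 CPM over the 12 libraries (1.24). It measured 7.95, 6.65, 6.21 and 10.1 CPM in Sham vehicle, 21.1, 19.9, 65.6 and 68.7 in UNX/DOCA vehicle, then 6.40, 54.7, 19.9 and 18.5 in UNX/DOCA ITF2357. UNX/DOCA vehicle lay wholly above Sham vehicle and fell into a low and a high pair, and the drug group ran from the Sham vehicle range to near the high pair. The Prg4 means stood at a ratio of 5.67, with a log2 fold change of 2.50 ± 0.63 (adjusted p = 0.127). With UNX/DOCA vehicle replicates 3 and 4 both left out it was 1.41. The value of UNX/DOCA ITF2357 against UNX/DOCA vehicle was -0.81 ± 0.59 (adjusted p = 0.495), and it turned to 0.27 when the same pair was left out. Without UNX/DOCA ITF2357 replicate 2, the highest drug library, it was -1.55. UNX/DOCA vehicle replicates 3 and 4 also had the most neutrophil marker CPM (693 and 175) of the 12 libraries. The same held for macrophage marker CPM (642 and 465). UNX/DOCA ITF2357 replicate 2, at 54.7 CPM of Prg4, had 17.98 neutrophil and 318 macrophage marker CPM. UNX/DOCA ITF2357 replicate 4, at 18.5 CPM of Prg4, had 30.6 neutrophil and 398 macrophage marker CPM. The part of these cells in the Prg4 value was not tested.

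Perlecan (Hspg2), the heparan sulfate proteoglycan of basement membranes, measured 318, 282, 259.7 and 312 CPM in Sham vehicle, 315, 259, 435 and 285 in UNX/DOCA vehicle, then 205, 271, 188 and 164 in UNX/DOCA ITF2357. The vehicle groups overlapped, and 3 of the 4 drug libraries lay below every vehicle library. The Hspg2 log2 fold change between UNX/DOCA vehicle and Sham vehicle was 0.14 ± 0.17 (adjusted p = 0.714) and -0.032 without replicate 3. Between UNX/DOCA ITF2357 and UNX/DOCA vehicle it was -0.64 ± 0.17 (adjusted p = 0.0861), the smallest adjusted p of any member in that comparison. Without UNX/DOCA ITF2357 replicate 2 the Hspg2 value passed (-0.80, adjusted p = 0.0391, with 0.875% of all genes called in that fit), and without UNX/DOCA vehicle replicate 3 it was -0.47 (adjusted p = 0.158). Between UNX/DOCA ITF2357 and Sham vehicle it was -0.50 ± 0.17 (adjusted p = 0.131).

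**Figure D2:**
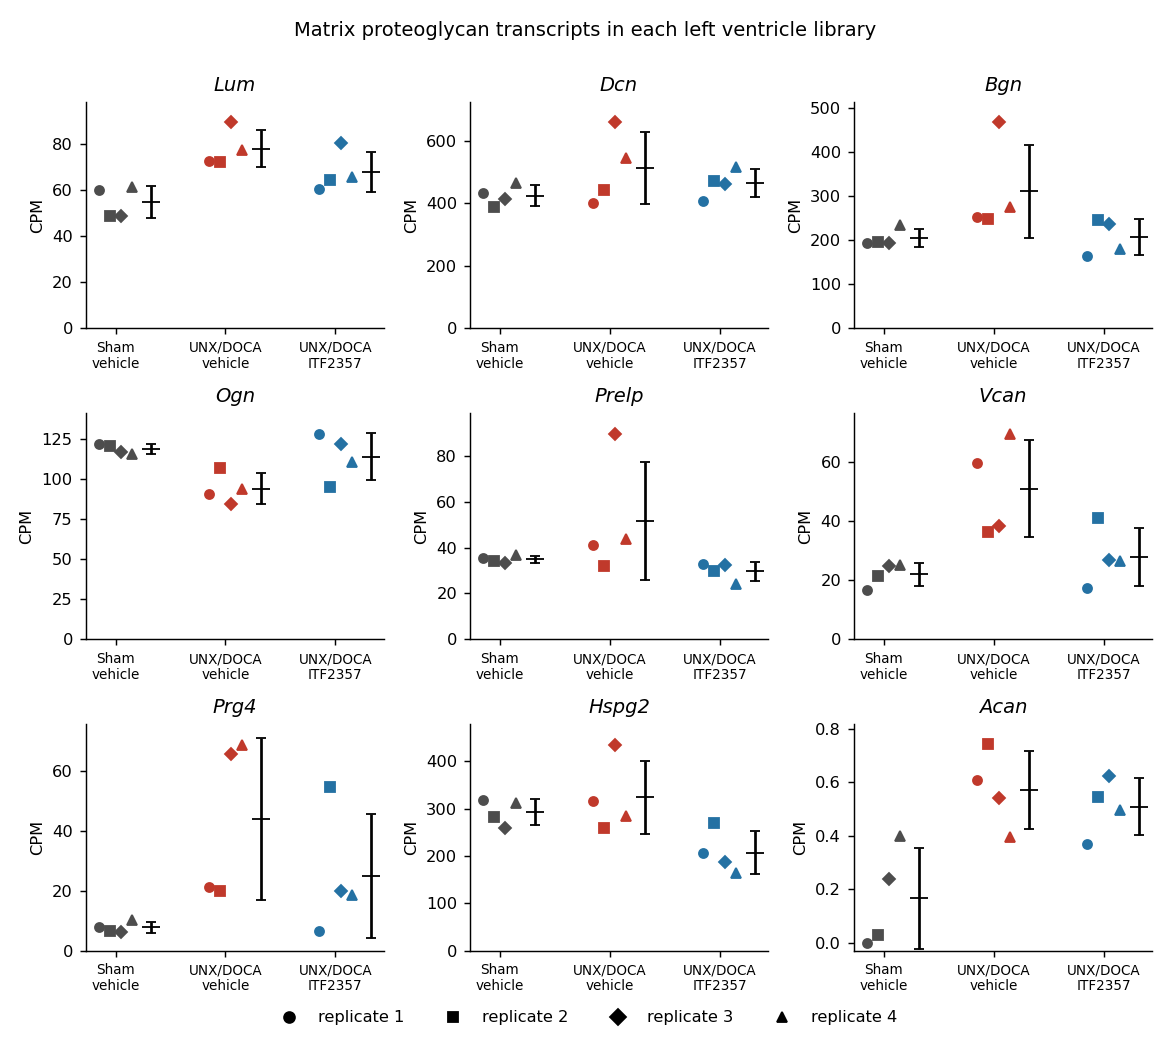
CPM of the 9 tested members in each library, with a symbol per replicate, a colour per group, and the mean ± SD (n = 4) in black beside the points. UNX/DOCA vehicle replicate 3 is the highest library for Lum, Dcn, Bgn, Prelp and Hspg2, and Ogn lies lower in UNX/DOCA vehicle than in Sham vehicle.

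Set side by side, UNX/DOCA vehicle against Sham vehicle, which asks what UNX/DOCA did, gave 8 members above 0 and 1 (Ogn) below. The median log2 fold change was 0.57 beside 0.01 over all genes tested, of which 51.1% were above 0. Kidney removal and deoxycorticosterone acetate came together, so their parts cannot be told apart. Of the 9 members 0 passed, and the background was likewise 0% (0 of 16981 genes). At an unadjusted p under 0.05 there were 7 members, 6 higher (Lum, Bgn, Prelp, Vcan, Prg4 and Acan) and 1 lower (Ogn), against 15.9% of all genes (9.42% higher and 6.47% lower). Acan entered the tested set only through the UNX/DOCA groups, where it was high. With the filter of 1 CPM in 4 libraries, which Acan did not pass, there were 6 of 8. The groups did not overlap for 5 members, namely Lum, Bgn, Vcan and Prg4 higher and Ogn lower, against 9.39% of all genes (5.03% higher and 4.36% lower). DESeq2 called Lum (adjusted p = 0.00641), Vcan (0.00138) and Prg4 (0.00758) in this comparison, with a background of 3.26%. Limma-voom called Lum (0.0379) and Vcan (0.0312), with a background of 3.07%. With no filter on low counts edgeR called Lum, with a background of 0.48%. Without UNX/DOCA vehicle replicate 3 the median of the members was 0.34, and with replicates 3 and 4 both left out it was 0.29. Without that pair 6 members were above 0 and 3 below, and 4 had an unadjusted p under 0.05.

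UNX/DOCA ITF2357 against UNX/DOCA vehicle, which asks what the drug did after UNX/DOCA, gave 8 members below 0 and 1 (Ogn) above. The median was -0.59 beside 0.00 over all genes, of which 49.8% were above 0. Again 0 of 9 passed, against 0.901% of all genes. At an unadjusted p under 0.05 there were 5 members (Bgn, Prelp, Vcan and Hspg2 lower, Ogn higher), against 18.5% of all genes (9.8% lower and 8.7% higher). Bgn was the 1 member whose groups did not overlap, and it was lower, against 9.31% of all genes (4.36% lower and 4.95% higher). DESeq2 called Hspg2 (adjusted p = 0.0136), Vcan (0.0270) and Prelp (0.0334), with a background of 4.98%. Limma-voom called 0 members, with a background of 1.48%. The median of the members was -0.33 without UNX/DOCA vehicle replicate 3 and -0.28 without replicates 3 and 4. Without that pair 3 members were above 0 and 6 below, and 3 had an unadjusted p under 0.05. This comparison shares the UNX/DOCA vehicle libraries with the former, so their opposite signs are not independent of each other.

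UNX/DOCA ITF2357 against Sham vehicle asks how far the treated ventricles stood from the sham ventricles. Of the members 6 were above 0 and 3 (Ogn, Prelp and Hspg2) below, beside 52.3% of all genes above 0. The median was 0.13 beside 0.01 over all genes. With 1 library left out this median ran from 0.070 (without UNX/DOCA ITF2357 replicate 4) to 0.18 (without UNX/DOCA ITF2357 replicate 1), and it was 0.080 without Sham vehicle replicate 2. Again 0 of 9 passed, against 1.75% of all genes. At an unadjusted p under 0.05 there were 4 members (Lum, Prg4 and Acan higher, Hspg2 lower), against 20.1% of all genes (10.7% higher and 9.39% lower). Here too Acan was tested only because of its counts in the UNX/DOCA groups. With the filter of 1 CPM in 4 libraries, which Acan did not pass, there were 3 of 8. Without Sham vehicle replicate 2 there were 2 such members. Prelp was the 1 member whose groups did not overlap, and it was lower, against 13.7% of all genes (6.39% lower and 7.27% higher). Its log2 fold change was -0.23 ± 0.25 (adjusted p = 0.650), smaller than its standard error. Limma-voom called Hspg2 (adjusted p = 0.0225) and Acan (0.0494), with a background of 8.87%. The Bgn and Ogn values in this comparison were 0.019 ± 0.20 and -0.06 ± 0.09 (SE), each smaller than its standard error. DESeq2 called 0 members here, with a background of 5.6%.

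**Figure D3:**
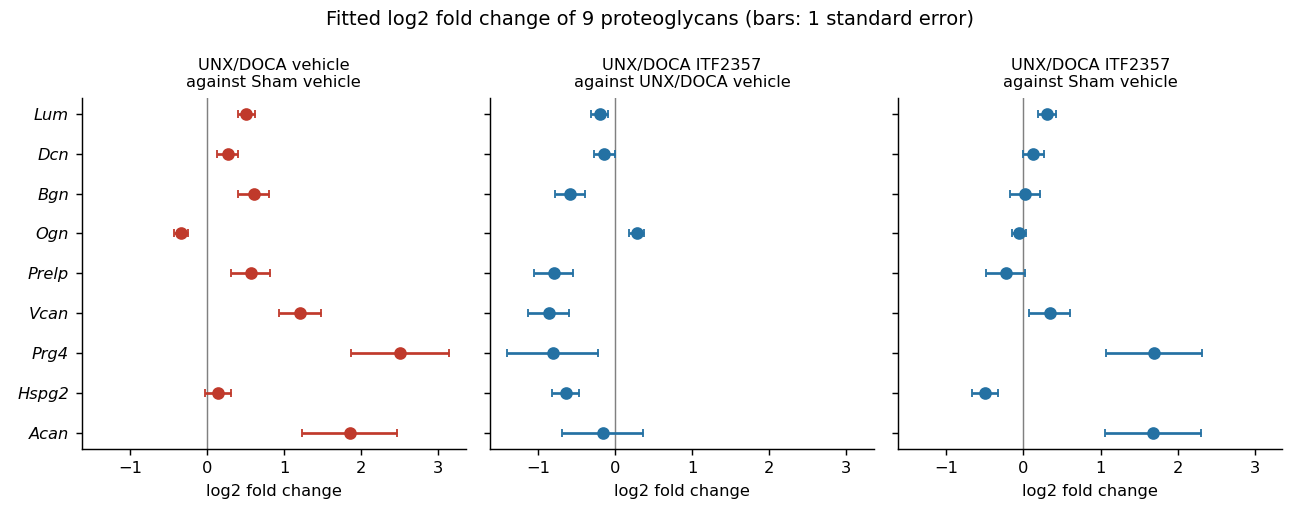
Fitted log2 fold change of the 9 tested members in the 3 comparisons, with bars of 1 standard error (n = 4 per group). Ogn lies on the other side of 0 from the remaining members in the first and second panels, and none of the points passed the adjusted threshold.

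Ratios of a pair of members within a library do not depend on library scaling, and 6 ratios in 3 comparisons gave 18 exact two-sided permutation tests. With 4 against 4 libraries the smallest p such a test can give is 0.0286, and all adjusted p were 0.129 or higher. The log2 ratio of Ogn to Lum was 1.12 ± 0.19 in Sham vehicle, 0.27 ± 0.27 in UNX/DOCA vehicle, then 0.75 ± 0.24 in UNX/DOCA ITF2357 (SD, n = 4). Between the vehicle groups the Ogn to Lum ratio differed by -0.85 (exact permutation p = 0.0286, adjusted 0.129). All 4 UNX/DOCA vehicle libraries had a lower ratio than all 4 Sham vehicle libraries. The largest of the 18 differences was in the log2 ratio of Prg4 to Lum, at -1.07 ± 0.88 in UNX/DOCA vehicle against -2.83 ± 0.16 in Sham vehicle, or 1.77 (exact permutation p = 0.0286, adjusted 0.129). The log2 ratio of Hspg2 to Dcn differed by -0.65 between UNX/DOCA ITF2357 and Sham vehicle, and that of Prelp to Lum by -0.55 (exact permutation p = 0.0286 and adjusted 0.129 for both). The ratio of Bgn to Dcn, the closest pair by structure, was -1.06 ± 0.09, -0.75 ± 0.21 and -1.18 ± 0.28 in the groups in the same order.

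UNX/DOCA vehicle replicate 3 was the highest of the 12 libraries for 5 members (Lum, Dcn, Bgn, Prelp and Hspg2) and replicate 4 for Vcan and Prg4. Summed over the members, CPM per kilobase was 711 in replicate 3 and between 401 and 546 in the other 11 libraries. Without replicate 3 the difference in the Ogn to Lum ratio between the vehicle groups was -0.74 against -0.85 with it. Activated fibroblast markers summed to 539 CPM in replicate 3, to 339 to 423 in the rest of its group, to 263 to 459 in Sham vehicle and to 134 to 340 in UNX/DOCA ITF2357. Endothelial markers summed to 787 to 909 CPM in Sham vehicle, 869 to 999.6 in UNX/DOCA vehicle and 707 to 1053 in the drug group, where replicate 2, the highest drug library for Hspg2, was also the highest for these markers. The part of fibroblast, endothelial, macrophage and neutrophil content in the member values was not tested.

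**Figure D4:**
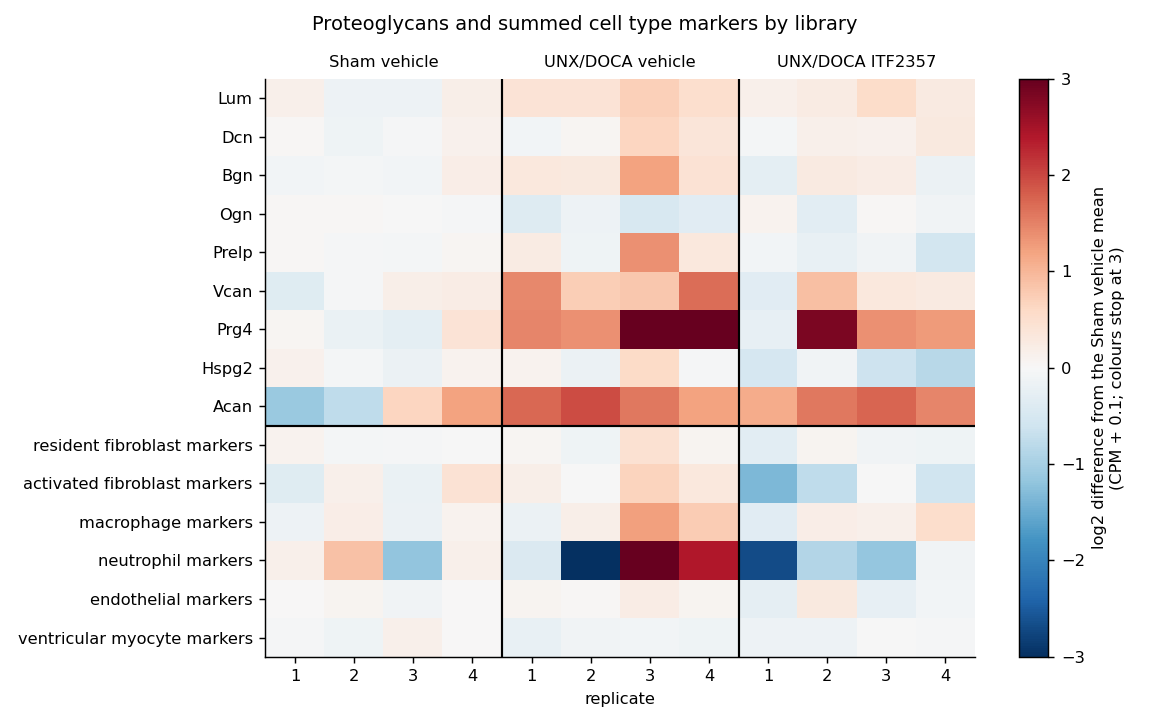
Log2 difference from the Sham vehicle mean (CPM plus 0.1, colours stopping at 3) for the 9 tested members and for 6 summed marker lists, 1 column per library. UNX/DOCA vehicle replicate 3 is red in most member rows and in the macrophage and neutrophil rows, and Ogn is blue in all 4 UNX/DOCA vehicle libraries.

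Genes that work with the proteoglycans were read from 11 lists. In UNX/DOCA vehicle against Sham vehicle 0 genes passed in any list with edgeR, as over all genes. DESeq2 called 13 list genes, with a background of 3.26% of all genes, and limma-voom 12, with a background of 3.07%. EdgeR called 9 without UNX/DOCA vehicle replicate 1, with a background of 2.2%. Whether the lists held more calls than the background was not tested in any comparison. Proteases that cut proteoglycans and their inhibitors stood at a median log2 fold change of 0.48 across 21 tested genes, 17 of them above 0. That median turned to -0.078, with 10 of 21 above 0, without UNX/DOCA vehicle replicates 3 and 4. In that list the collagenase inhibitor Timp1 averaged 8.94 ± 3.26 against 2.60 ± 1.47 CPM (adjusted p = 0.120), and Htra1, a serine protease that cuts decorin and biglycan, 54.5 ± 5.06 against 70.5 ± 3.87 (adjusted p = 0.0954). Collagens that small leucine-rich proteoglycans bind had a median of 0.40, with 10 of 10 tested above 0, and 0.24, with 9 above 0, without UNX/DOCA vehicle replicate 3. Col14a1, a fibril-surface collagen, averaged 20.5 ± 10.2 against 9.24 ± 1.40 CPM (adjusted p = 0.117). Growth factors and receptors bound by proteoglycans had a median of 0.36 over 16 genes, which was 0.19 without that replicate. Other small leucine-rich proteoglycans had a median of 0.11 over 7 tested genes, and Ecm2 among them averaged 19.5 ± 3.40 against 28.0 ± 1.07 CPM (adjusted p = 0.108).

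For the enzymes that build the sugar chains, the medians in the same comparison were 0.08 for linker and precursor supply (14 genes), 0.12 for chondroitin and dermatan sulfate (15), 0.08 for heparan sulfate (17) and -0.07 for keratan sulfate (5). Without UNX/DOCA vehicle replicate 3 the medians of heparan sulfate and keratan sulfate were 0.0079 and -0.012. Ugdh, which makes the glucuronate donor for the chains, averaged 38.5 ± 20.03 against 16.6 ± 2.52 CPM (adjusted p = 0.130). Papss2, which makes the sulfate donor, averaged 23.8 ± 4.43 against 16.5 ± 0.474 (adjusted p = 0.120). B4galt1, a galactosyltransferase used for keratan sulfate and other sugars, averaged 141 ± 24.8 against 93.2 ± 12.2 (adjusted p = 0.0954).

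In UNX/DOCA ITF2357 against UNX/DOCA vehicle 5 genes of these lists passed, beside 0.901% of all genes. In the fit of these 2 groups alone 1 of the 5 did, Hapln4. DESeq2 called 25 list genes, with a background of 4.98% of all genes, and limma-voom 8, with a background of 1.48%. With 1 library left out the count of list genes called by edgeR ran from 1 to 13 (the latter without UNX/DOCA vehicle replicate 2). In the main fit 2 of the 14 basement membrane partners of perlecan fell and 0 rose, with a median of -0.19. These were the type IV collagen chains Col4a1, which measured 246, 403, 244 and 306 CPM against 571, 429, 557 and 554 (log2 fold change -0.82, adjusted p = 0.0395), and Col4a2, at 236 ± 48.0 against 396 ± 78.2 CPM (-0.75, adjusted p = 0.0496). All 4 drug libraries lay below all 4 UNX/DOCA vehicle libraries for both chains. Col4a1 and Col4a2 lost the call when 1 library was left out, for 10 of the 12 libraries (all but replicate 2 of UNX/DOCA vehicle and of UNX/DOCA ITF2357), with adjusted p up to 0.119 and 0.126. Over all 22 alternatives Col4a1 lost it in 14 and Col4a2 in 16, with adjusted p up to 0.254 and 0.272 (both without UNX/DOCA vehicle replicates 3 and 4).

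Of the 10 tested collagens that small leucine-rich proteoglycans bind 1 fell, and all 10 were below 0, with a median of -0.63. It was Col6a2, a chain of the microfibril collagen that decorin and biglycan bind, at 46.3, 51.3, 51.7 and 41.1 CPM against 86.8, 66.0, 110 and 66.4 (log2 fold change -0.79, adjusted p = 0.0349). The groups did not overlap. Col6a2 lost the call when 1 library was left out, for any of Sham vehicle replicates 1, 2 and 4 or UNX/DOCA ITF2357 replicates 1, 3 and 4 (adjusted p up to 0.0984). Over all 22 alternatives it did so in 9, with adjusted p up to 0.132 in the fit of the 2 groups. Col3a1, a fibril collagen, averaged 117 ± 24.4 against 234 ± 70.4 CPM (adjusted p = 0.0584).

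Of 17 tested genes of heparan sulfate synthesis and editing 1 fell, and the list's median was -0.05, or -0.022 without UNX/DOCA vehicle replicate 3. Hs6st1, which adds sulfate to the chains carried by perlecan, measured 23.1, 23.7, 20.03 and 20.8 CPM against 29.0, 28.0, 30.6 and 35.7 (log2 fold change -0.49, adjusted p = 0.0395). The groups did not overlap. Hs6st1 lost the call when 1 library was left out, for 9 of the 12 libraries (all but UNX/DOCA vehicle replicates 1 and 2 and UNX/DOCA ITF2357 replicate 2), with adjusted p up to 0.119. Over all 22 alternatives it did so in 13, with adjusted p up to 0.246 without UNX/DOCA vehicle replicates 3 and 4.

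Of 14 tested genes for hyaluronan and link proteins 1 rose, with a median of -0.37, or -0.23 without UNX/DOCA vehicle replicate 3. Hapln4, a link protein known from brain matrix that fastens proteoglycans of the versican family to hyaluronan, had 24, 30, 24 and 14 counts in UNX/DOCA ITF2357. It had 1, 1, 0 and 0 counts in UNX/DOCA vehicle and 1, 3, 1 and 3 in Sham vehicle. The drug libraries lay above all others, and Hapln4 passed against UNX/DOCA vehicle (adjusted p = 0.00104) and against Sham vehicle (adjusted p = 0.00417), and in all 21 alternatives of both. However, Hapln4 met the low-count filter only through the drug group, where it was high, so these calls are not independent of the filter. At 0.58 to 0.911 CPM in that group, it was not tested with the filter of 1 CPM in 4 libraries. In the same list the hyaluronan receptor Hmmr stood at 0.132 ± 0.051 CPM beside 0.601 ± 0.351 (adjusted p = 0.0584), and the receptor Cd44 5.50 ± 1.56 against 12.8 ± 6.17 (adjusted p = 0.0769).

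In UNX/DOCA ITF2357 against Sham vehicle 3 genes of these lists passed, beside 1.75% of all genes. All 3 were among the 14 tested genes of the hyaluronan list. DESeq2 called 6 list genes, with a background of 5.6% of all genes, and limma-voom 12, with a background of 8.87%. With 1 library left out the count of list genes called by edgeR ran from 1 to 8 (the latter without UNX/DOCA vehicle replicate 3). Beside Hapln4, the hyaluronidase Hyal1 rose, at 4.73, 6.26, 5.77 and 3.89 CPM against 2.74, 3.35, 3.24 and 2.72 (log2 fold change 0.78, adjusted p = 0.0383). In UNX/DOCA vehicle Hyal1 measured 4.39, 3.91, 4.86 and 3.85 CPM, above every Sham vehicle library and overlapping the drug group. Hmmr, also known for its part in cell division, fell, with 5, 5, 2 and 3 counts against 14, 23, 21 and 13 (adjusted p = 0.0436). Neither gene overlapped between UNX/DOCA ITF2357 and Sham vehicle. Hyal1 lost the call when 1 library was left out, for any of the Sham vehicle replicates, UNX/DOCA vehicle replicates 2 and 4 or UNX/DOCA ITF2357 replicates 2 and 3 (adjusted p up to 0.119). Hmmr lost the call when 1 library was left out, for any of the Sham vehicle or UNX/DOCA ITF2357 replicates or UNX/DOCA vehicle replicate 4 (adjusted p up to 0.121). Hmmr also lost it with the replicate block (adjusted p = 0.0621).

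**Figure D5:**
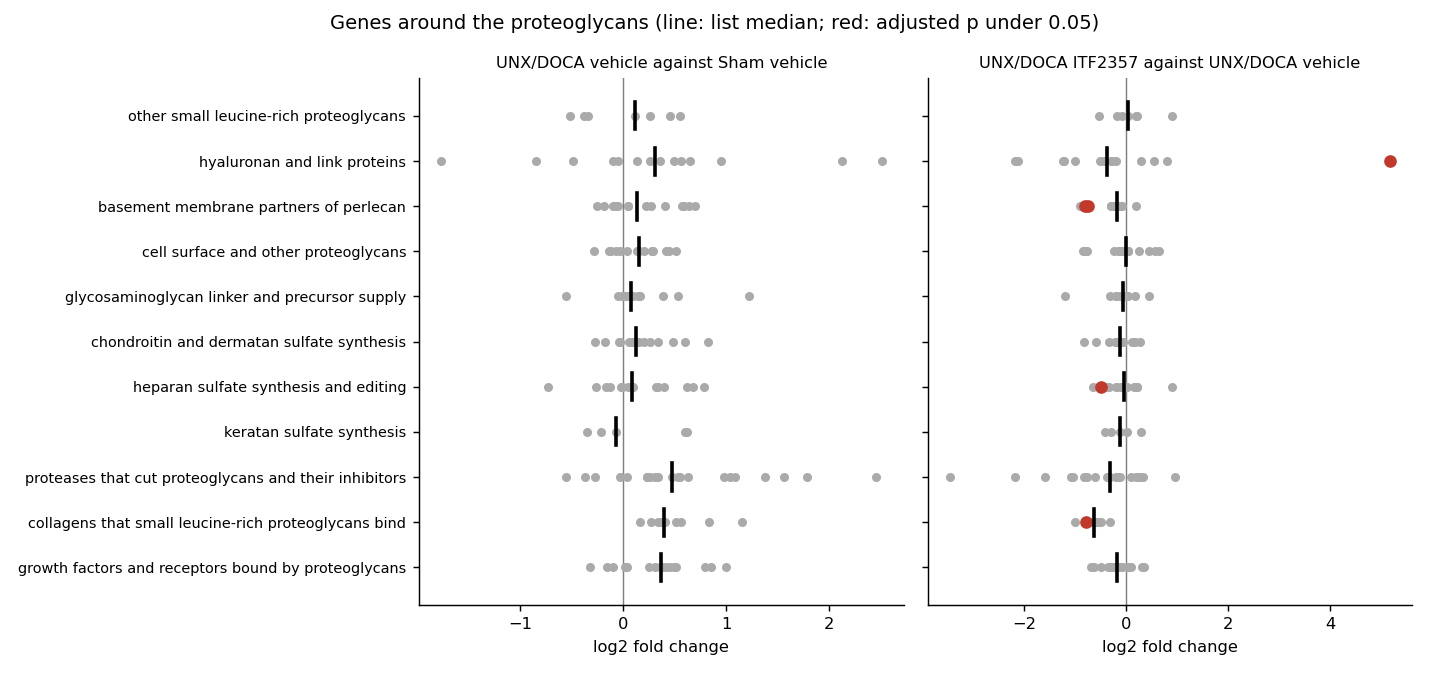
Log2 fold change of each tested gene of 11 lists in 2 comparisons, with a black line at the list median and red points for genes with an adjusted p under 0.05. No red point stands in UNX/DOCA vehicle against Sham vehicle, and in UNX/DOCA ITF2357 against UNX/DOCA vehicle the red points are Col4a1, Col4a2, Hs6st1 and Col6a2 below 0 and Hapln4 above 0.

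The genes with a pattern most like each member were found by the root mean square difference of centred log2 CPM over the 12 libraries, among 13201 genes with a mean of at least 1 CPM. This is a description with no test. Nearest to Bgn were Slc7a7, Pcolce and Tmem45a (difference 0.12 for the first, beside a spread of 0.38 for Bgn itself), and Pcolce encodes an enhancer of procollagen processing. Nearest to Vcan were Mfap5, a microfibril protein of fibroblasts, and Uck2 (0.25 beside a spread of 0.62). Nearest to Prg4 were Serpina3n, Timp1 and Ltbp2 (0.46 beside 1.24). Lum was nearest to Dpysl3 (0.11 beside 0.26), Dcn to Ipo4 (0.06 beside 0.21), Ogn to Actr3b (0.07 beside 0.19), Prelp to Emp3 (0.14 beside 0.44) and Hspg2 to Cad (0.13 beside 0.36). Among the members themselves Bgn stood at rank 20 of the genes nearest to Prelp, while no member came nearer to Ogn than rank 9583.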

How the data were processed

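Poly(A)-selected RNA from about 10 mg of left ventricle was made into directional libraries and sequenced in pairs of 150 bp reads, per the labels' protocols. The authors deposited raw counts per Ensembl gene. Per the submitters' processing notes, FastQC 0.11.9 and STAR 2.7.10b were used with mm39. Which counting tool and strand setting were used is not given in the sources used here. A gene and an overlapping or antisense neighbour then cannot be told apart. The replicates of a group are biological replicates per the labels. Drug libraries were identified by title, since 1 treatment field counts up from library to library.

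Symbols and transcript lengths came from GENCODE vM21 (GRCm38) by Ensembl identifier, with no use of positions. The main test was edgeR (version 4.0.16, R 4.3.3) on the deposited counts, with filterByExpr (minimum count 10), TMM scaling and a robust quasi-likelihood fit of the 12 libraries by group (9 residual degrees of freedom), adjusted over 16981 genes in each of 3 contrasts. The fit was checked on simulated counts. Alternatives used limma 3.58.1 and DESeq2 1.42.0, other scalings and filters, a replicate block, and each library left out. Same-numbered libraries of different groups correlated between -0.19 and 0.25 (median 0.00, 12 pairs). No clear pairing by number was seen, but with 4 libraries a group this check cannot exclude one. Counts of replicates differed beyond counting error, so no library was a copy of another. Precision is set by 4 animals a group and, for Acan, Fmod, Hapln4 and Hmmr, by few counts. Acan, Hapln4 and Hmmr passed the low-count filter only through the groups where they were high.

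The members and lists were chosen with earlier results of these data known. Named genes are all members, called genes of the lists and, from the lists, genes among the 3 smallest p values of a contrast, plus the genes of most similar pattern. Protein sequences were not used here.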

Additional observations from a re-analysis of the deposited data

Results flagged for a closer look

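Of 27 groups of 4 libraries (9 tested members in 3 groups), 2 had a library whose gap to its neighbour took more of the group's range than Dixon's 95% critical value allows, and chance gives about 1 in 20 groups. Both were in Bgn. Sham vehicle replicate 4 measured 234 CPM beside 193 to 197 in the other 3 libraries. UNX/DOCA vehicle replicate 3 measured 467 CPM beside 248 to 275 in the other 3, and it was also the library with the most neutrophil and macrophage marker CPM, whose part was not tested.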

How the results depend on the processing

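Of 591 recomputed values of the 27 member and comparison pairs, 565 kept their direction and side of the threshold, 13 newly passed and 13 changed sign. Limits are 4 animals a group, few counts for Acan and Fmod, and the weight of UNX/DOCA vehicle replicate 3. The cause of the shifts was not tested.

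For UNX/DOCA vehicle against Sham vehicle, the 0 genes called became 541 with DESeq2, 521 with limma-voom, 210 with no filter, 7 with upper-quartile scaling, 31 with the replicate block, 1 without UNX/DOCA vehicle replicates 3 and 4 (a setting added after seeing the data), and 0 to 380 with 1 library left out. Members called became 3 with DESeq2, 2 with limma-voom, 1 (Lum) with no filter and 0 to 1 with 1 library left out. Hspg2 turned to -0.028 without replicates 3 and 4 and to -0.0047 with limma-voom, and ran from -0.032 to 0.23 with 1 library left out. Dcn turned to -0.011 without replicates 3 and 4.

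For UNX/DOCA ITF2357 against UNX/DOCA vehicle, the 153 genes (78 higher, 75 lower) became 870 with DESeq2, 251 with limma-voom, 352 with no filter, 5 in a fit of these 2 groups, 68 with the replicate block, 12 without replicates 3 and 4, and 14 to 243 with 1 library left out. Upper-quartile scaling split 173 calls into 108 higher and 65 lower, library totals gave 57 and 62, and RLE scaling 58 and 67. Members called became 3 with DESeq2 and 0 to 1 with 1 library left out. Without replicates 3 and 4 Prg4 turned to 0.27 and Dcn to 0.13.

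For UNX/DOCA ITF2357 against Sham vehicle, the 298 genes (155 higher, 143 lower) became 1025 with DESeq2, 1506 with limma-voom, 475 in a fit of these 2 groups, 192 with the replicate block, 481 without replicates 3 and 4, and 17 to 616 with 1 library left out. Upper-quartile scaling gave 214 higher and 89 lower, library totals 172 and 98, and relative log expression (RLE) scaling 142 and 155. Members called became 2 with limma-voom. Bgn turned to -0.0047 with the replicate block and ran from -0.078 to 0.11 with 1 library left out, and Ogn from -0.13 to 0.013.

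With 1 library left out, the log2 ratio of Prelp to Lum between the vehicle groups ran from -0.29 to 0.10, and that of Vcan to Dcn between UNX/DOCA ITF2357 and Sham vehicle from -0.033 to 0.31. The replicate block changed no call of a member.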
